A study of Homo sapiens with 5 samples.

Results

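The transcripts described here were 126 nuclear-encoded transcripts of MCF10A cells that stood highest, relative to all other transcripts, in RNA immunoprecipitation (RIP) of both FLAG-tagged CBFB and hnRNPK. MCF10A is an established, non-tumorigenic human breast epithelial cell line. Enrichment was the log2 of FPKM + 1 in a RIP library minus that in its own input library, minus the mean of this difference over 11764 analysed genes, those whose FPKM averaged 1 or more across the 5 libraries. FPKM is the number of fragments scaled to transcript length and to library size, as deposited. A gene was a member when its enrichment was above 3, that is 8-fold over the average gene, for FLAG-CBFB and for each of the hnRNPK RIP repeats, with at least 100 expected counts in each input. Mitochondrial genes, their nuclear pseudogenes, and FOSL1, GSK3A and SF3A2 were left out. "Nuclear" here refers to where the gene is encoded, since no cell fraction was separated. The members were chosen by the FPKM of these same 5 libraries, so all of the enrichment values given below are a description, with no test.

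RIPseq sequences the RNA that comes down with a protein when an antibody is used to pull that protein out of a lysate, and compares it with the input RNA of the same kind of cells. The study used it to ask which transcripts CBFB binds and whether hnRNPK binds the same ones. For CBFB, MCF10A cells made into a stable line expressing FLAG-tagged CBFB were used with a FLAG antibody, giving 1 input and 1 RIP library. For hnRNPK, parental MCF10A cells were used with an antibody against the endogenous protein, giving 1 input and 2 RIP libraries. All cells were untreated and grown in the same medium with horse serum, insulin, EGF, hydrocortisone and cholera toxin. The tagged protein came from a transgene, so its level can differ from that of endogenous CBFB, and whether the line used for RIP kept its own CBFB gene intact was not stated. No mock immunoprecipitation was analysed here, so transcripts that bind beads or antibody and transcripts that bind the protein cannot be told apart. The repeats of the hnRNPK RIP shared 1 input, and their SD therefore holds no input error. Whether these repeats came from separate cultures was not stated.

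hnRNPK (heterogeneous nuclear ribonucleoprotein K) binds single-stranded RNA and DNA rich in cytosine through its KH domains, and it is closely related to the poly(C)-binding proteins, of which PCBP2 is one. It takes part in transcription, splicing, RNA stability and translation. CBFB (core binding factor subunit beta) is known as the partner that does not itself contact DNA in complexes with RUNX transcription factors.

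Because hnRNPK is a C-binding protein, the most C-rich stretch of 30 nt within 1 exon is printed for 8 members, with runs of 3 or more C in capitals. They were chosen, after values were seen, from the 20 members with the highest lowest-of-3 enrichment, with PRKACA added for its large excess for hnRNPK over FLAG-CBFB, so as to show stretches in untranslated, coding and noncoding parts. Each is the sense strand of 1 annotated transcript of GENCODE 29, read 5′ to 3′ from the reference and not from these libraries.
ZNF385A: aCCCCCgagCCCCCttggagacaCCCCCCC
RAB3A: accaCCCtgggaCCCCCCCCCCCCCCgCCC
PPDPF: gCCCCCCtCCCCacctCCCaCCCCCCaCCC
PRKACA: CCCacagCCCCCCagCCCCtcagCCCtCCC
PCBP2: ttCCCCttCCCgCCCgctCCCCttttCCCC
TCF7L1: CCCCCggctCCCCtCCCaCCCacctctCCC
SF3B4: CCCacctgggataCCCCCagccatgCCCCC
VPS9D1-AS1: CCCgCCCCgatttagCCCCCgactCCCCCC
On GRCh38, the first 4 lie in 3′ untranslated regions, of ZNF385A at chr12:54369973-54370002 (minus strand, exon 9 of 9), of RAB3A at chr19:18196902-18196931 (minus strand, exon 5 of 5), of PPDPF at chr20:63521967-63521996 (plus strand, exon 4 of 4) and of PRKACA at chr19:14092837-14092866 (minus strand, exon 10 of 10). The PCBP2 stretch lies in the 5′ untranslated region at chr12:53452326-53452355 (plus strand, exon 1 of 15). Those of TCF7L1 at chr2:85302566-85302595 (plus strand, exon 5 of 12) and SF3B4 at chr1:149925961-149925990 (minus strand, exon 4 of 6) are coding. The VPS9D1-AS1 stretch, at chr16:89717612-89717641 (plus strand, exon 4 of 4), belongs to a long noncoding RNA. The RAB3A stretch holds an unbroken run of 14 C. The printed stretches hold from 13 (SF3B4) to 22 (PPDPF) bases in runs of 3 or more C. Other stretches were looked up but not printed, and most were poorer. Those of PRAF2, POLR2A, SH3BGRL3, TPTEP1 and EGR1 hold 9, 12, 13, 14 and 15 such bases, and that of CAMK2N2 holds 21. The printed ones are thus not typical of the strongest members.

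The libraries held 69786576 to 106855647 expected counts. Mitochondrial transcripts took 4.27% and 11.2% of the inputs, 62.2% of the FLAG-CBFB RIP, and 84.5% and 86.6% of the hnRNPK RIP repeats. The average log2 ratio of RIP over input was -1.34 for FLAG-CBFB and -2.61 and -2.68 in the hnRNPK repeats, and this average was subtracted in the enrichment. Markers of basal breast epithelium such as KRT5, KRT17, TP63, EGFR, ITGB4 and LAMB3 were present in both inputs, with KRT14 low at 6.78 and 1.81 FPKM. KRT18, a keratin of luminal cells, was also high at 305 and 702 FPKM, and EPCAM, a general epithelial marker, was at 69.3 and 103 FPKM. The hormone receptor gene PGR was listed at 0 in both inputs, and ESR1 was at 0.71 and 0.67 FPKM. Of the other cell types' markers, CDH5 and COL1A2 were listed at 0, PTPRC, CD3E, PDGFRB and ALB lay at or below 0.14 FPKM in both inputs, and COL1A1 was at 1.08 and 1.77 FPKM.

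Of the 11764 genes, 2.02% passed 3 in the FLAG-CBFB RIP, 4.05% in hnRNPK repeat 1 and 3.55% in repeat 2, and 1.50% (177 genes) did so in all 3. Of the 177, 30 had fewer than 100 counts in an input. Of the remaining 147, 13 were mitochondrial genes, 5 were nuclear pseudogenes of mitochondrial genes and 3 were the genes left out by name. Just inside the threshold, by the lowest of their 3 enrichments, were CCDC97 at 3.01, RAPH1 at 3.04 and ALOXE3 at 3.04. Just outside it were UBE2V1 at 2.98, AC124944.3 at 2.98 and HOXA3 at 2.97, so the edge of the set falls within a continuous range of values.

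The members had a median enrichment of 3.84 in the FLAG-CBFB RIP (range 3.01 to 6.33) and medians of 4.52 and 4.22 in the hnRNPK repeats. The median SD between the repeats was 0.19 over the members, wider than the 0.11 over all analysed genes. The median FPKM in these repeats was 67.0 and 53.65 over the members, and 1.10 and 1.01 over all analysed genes. Adding 1 to FPKM narrows the spread at such low values, so these SDs are not directly comparable. The uncentred comparison sets the members against their own input on the FPKM scale. All 126 were then higher in each of the 3 RIPs than in the input, against 3.76% of the 11764 genes. For the members this was fixed by the threshold of 3 and the subtracted averages, and is no separate support. The median fold on this scale was 6.28 for FLAG-CBFB and 3.99 and 3.16 in the hnRNPK repeats, and 106 members were at least 2-fold up in all 3. The other 20 were below 2-fold in an hnRNPK repeat only, since the rule and the subtracted average put every member above 2-fold for FLAG-CBFB. On this uncentred scale 0 genes met the rule. Also without centring, FPKM rescaled to leave out mitochondrial genes gave 119 genes, all of them members, so the set depends on some adjustment between the libraries but not on the centring alone. Which RIP is the higher for a gene is likewise given on the centred scale throughout. For comparison, GAPDH had an enrichment of -0.18 for FLAG-CBFB and -2.69 ± 0.04 (SD, n = 2) for hnRNPK. RUNX1, the transcript that the study followed up, stood at 2.13 and 3.09 ± 0.28. It missed the threshold of 3 for FLAG-CBFB. For hnRNPK, repeat 1 passed (3.29) but repeat 2 did not (2.89).

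**Figure D1:**
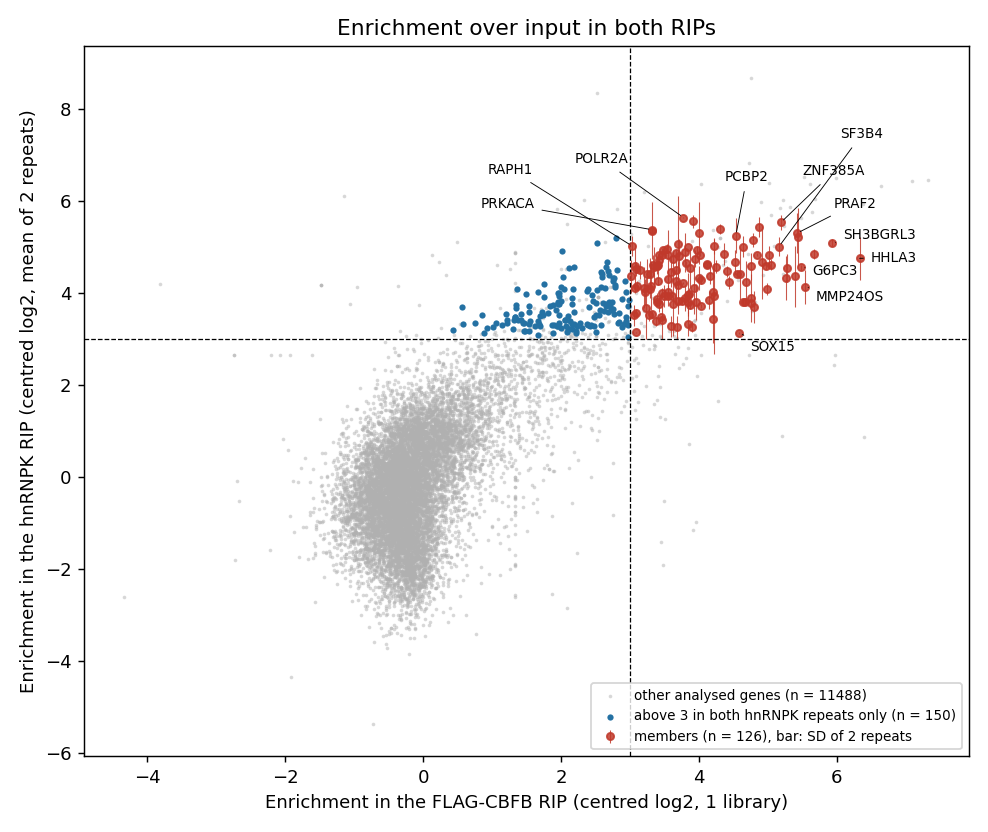
Enrichment in the FLAG-CBFB RIP (x axis, centred log2, 1 library) against the mean of the 2 hnRNPK RIP repeats (y axis, centred log2) for the 11764 analysed genes. Red points are the 126 members with the SD of the 2 repeats. Blue points are 150 genes above 3 in both hnRNPK repeats but not in the FLAG-CBFB RIP, and dashed lines mark 3. Grey points in the upper right corner are genes left out or below the count minimum. They can also be genes that passed 3 by the mean of the repeats but not in each repeat. The blue points run up to the line at 3 without a gap, among the members HHLA3 is farthest right at 6.33 and POLR2A is highest at 5.63.

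The members filled a large part of the RNA recovered beside the mitochondrial transcripts. They held 0.822% and 0.886% of the non-mitochondrial counts of the FLAG-CBFB cell and parental inputs. The share was 15.2% of the FLAG-CBFB RIP, and it was 22.5% and 20.4% in the hnRNPK RIP repeats. The 150 genes that passed 3 in both hnRNPK repeats but not in the FLAG-CBFB RIP went from 0.992% and 0.910% of the inputs to 4.31%, 12.1% and 11.7%. With the same minimum count and the same genes left out, these 150 genes are the set most like the members, and their median enrichment was 2.11 in the FLAG-CBFB RIP and 3.54 over the hnRNPK repeats.

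**Figure D2:**
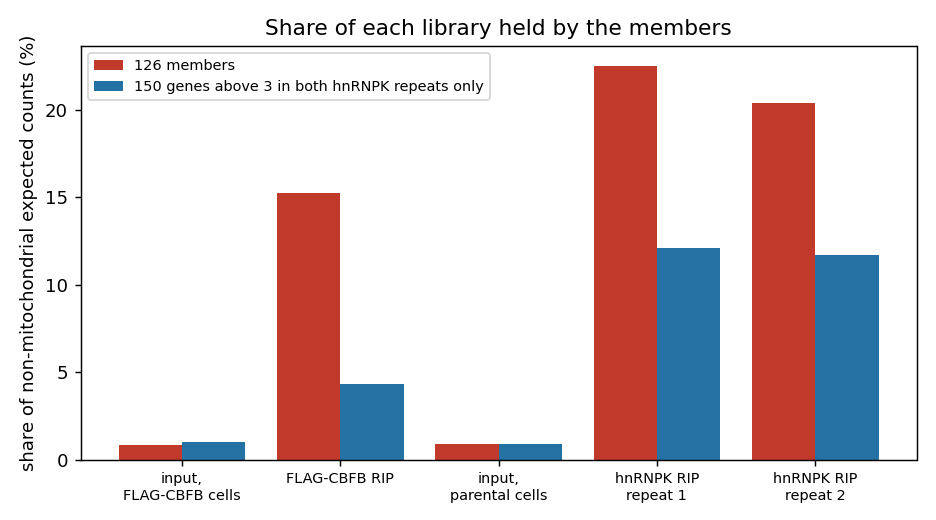
Share of the non-mitochondrial expected counts of each of the 5 libraries (y axis, %) held by the 126 members (red) and by the 150 genes above 3 in both hnRNPK repeats only (blue). Both sets hold below 1% of each input, and the members hold 15.2%, 22.5% and 20.4% of the RIP libraries.

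By the lowest of its 3 enrichments, ZNF385A, a zinc finger protein that interacts with p53, stood first. It measured 8.48 FPKM in the FLAG-CBFB cell input, 136 in the FLAG-CBFB RIP, 5.57 in the parental cell input, and 52.8 and 42.6 in the hnRNPK RIP repeats. Both RIPs of hnRNPK lay far above the parental input, and the FLAG-CBFB RIP stood 16.0-fold above its own input. The enrichments were 5.19 for FLAG-CBFB and 5.53 ± 0.16 (SD, n = 2) for hnRNPK. SH3BGRL3, a small protein with a thioredoxin-like fold, measured 121 FPKM in the FLAG-CBFB cell input, 2922 in the FLAG-CBFB RIP, 207 in the parental cell input, and 1197 and 1058 in the hnRNPK RIP repeats. It was the second of the 2 members above 5 in all 3 RIPs, at 5.93 and 5.08 ± 0.08. PRAF2, a membrane protein of the endoplasmic reticulum, measured 4.78 FPKM in the FLAG-CBFB cell input, 97.0 in the FLAG-CBFB RIP, 8.66 in the parental cell input, and 76.0 and 46.6 in the hnRNPK RIP repeats. It stood 20.3-fold above its input in the FLAG-CBFB RIP, and hnRNPK repeat 1 was higher than repeat 2, at 5.60 against 4.98. PPDPF, with the most C runs of all members, measured 131 FPKM in the FLAG-CBFB cell input, 2647 in the FLAG-CBFB RIP, 290.1 in the parental cell input, and 1436 and 1234 in the hnRNPK RIP repeats. The RIPs again lay well above the inputs, though the inputs themselves differed by -1.14 on the log2 scale, with the parental one higher. GRINA, a membrane protein of the TMBIM family, measured 251 FPKM in the FLAG-CBFB cell input, 4307 in the FLAG-CBFB RIP, 190.5 in the parental cell input, and 1589 and 816 in the hnRNPK RIP repeats, and its repeats differed by more, at 5.66 and 4.77. In all, 33 members were above 4 in all 3 RIPs.

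**Figure D3:**
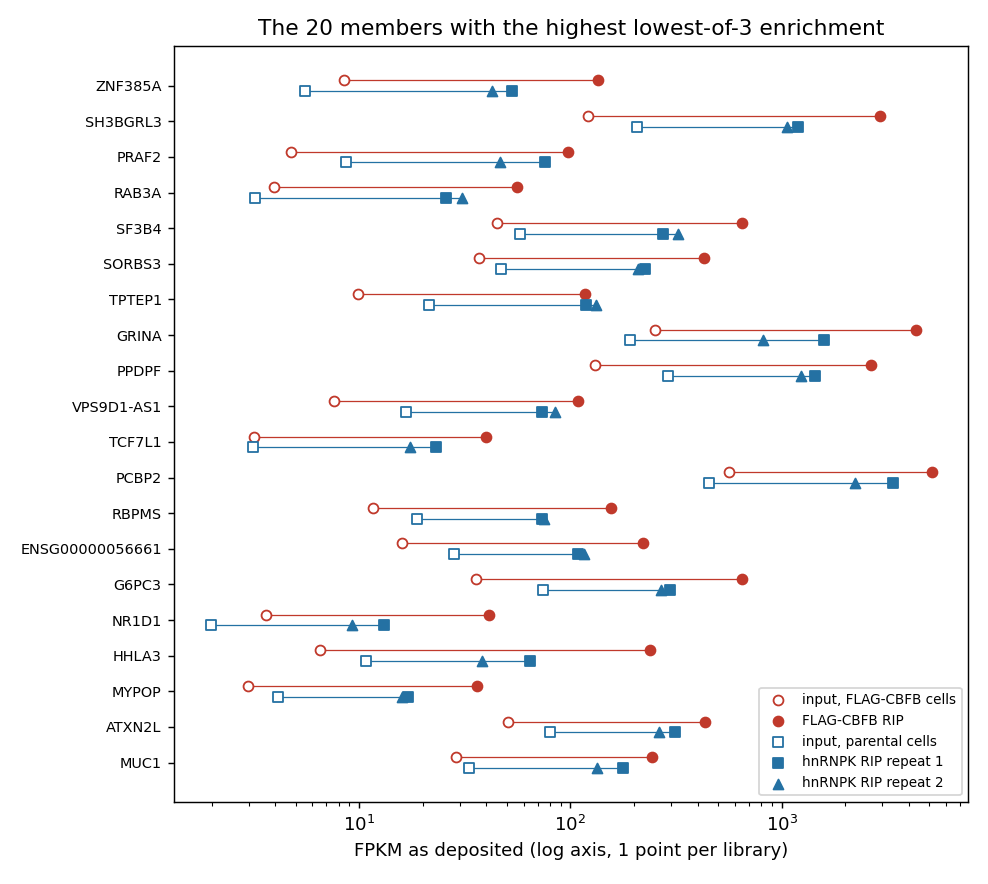
Deposited FPKM (x axis, log scale) in each of the 5 libraries for the 20 members with the highest lowest-of-3 enrichment, in descending order. Open symbols are inputs and filled symbols are RIPs, with red for the FLAG-CBFB cells, blue for the parental cells and 1 point per library. Every filled symbol lies to the right of the open symbol of its colour, and input levels span from 1.98 FPKM (NR1D1) to 564 FPKM (PCBP2).

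RNA-binding and RNA-processing proteins were encoded by 8 members, with median enrichments of 4.17 for FLAG-CBFB and 4.52 for hnRNPK. This and the following groupings by role were made after the members were known and show only what they encode. The share of each role among all analysed genes was not computed, so whether a group is unusually large cannot be said. SF3B4, a subunit of the SF3b part of the U2 snRNP that recognises the branch point in splicing, measured 44.8 FPKM in the FLAG-CBFB cell input, 646 in the FLAG-CBFB RIP, 57.6 in the parental cell input, and 276 and 324 in the hnRNPK RIP repeats. Its enrichment was nearly the same in all 3, at 5.16, 4.85 and 5.15. PCBP2, the only protein-coding gene of the poly(C)-binding family among the members, was one of the most abundant, with 564 FPKM in the FLAG-CBFB cell input, 5174 in the FLAG-CBFB RIP, 452 in the parental cell input, and 3374 and 2219.8 in the hnRNPK RIP repeats. It was thus 9.17-fold above input for FLAG-CBFB and 7.47- and 4.92-fold above it in the hnRNPK repeats. The related PCBP1 was not a member, with enrichments of 1.06 and 0.69 ± 0.09, and neither was PCBP4, with 0.36 and 0.74 ± 0.15. HNRNPK mRNA itself lay at -0.59 and -2.59 ± 0.22, below the average gene.

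RBPMS and RBPMS2, paralogous RNA-binding proteins with a single RRM domain, were both members at very different levels. RBPMS measured 11.6 FPKM in the FLAG-CBFB cell input, 156 in the FLAG-CBFB RIP, 18.8 in the parental cell input, and 73.8 and 75.2 in the hnRNPK RIP repeats. RBPMS2 measured 0.72 FPKM in the FLAG-CBFB cell input, 6.98 in the FLAG-CBFB RIP, 1.43 in the parental cell input, and 4.43 and 5.35 in the hnRNPK RIP repeats, so its value depends more on the pseudocount. ATXN2L, a relative of ataxin-2 found in stress granules, stood at 4.40 and 4.46 ± 0.13. ZFP36 (tristetraprolin) and ZFP36L1, which bind AU-rich elements and promote mRNA decay, were at 3.93 and 4.10 ± 0.55, and at 3.94 and 4.74 ± 0.18. DROSHA, the nuclease that cuts primary microRNAs, measured 29.7 FPKM in the FLAG-CBFB cell input, 127 in the FLAG-CBFB RIP, 44.7 in the parental cell input, and 102 and 109.9 in the hnRNPK RIP repeats, giving 3.40 and 3.87 ± 0.13. It was also on the panel that the study measured by real-time PCR, and its designed primers are printed to show which part that assay read.
DROSHA forward: gagaaggtccccagaaaggc
DROSHA reverse: atgactgtgatctcggtgcc
Both primers match the coding part of exon 4 of the annotated DROSHA transcript, at chr5:31526260-31526279 and chr5:31526219-31526238 of GRCh38, on a gene of the minus strand.

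Proteins of transcription and chromatin made up the largest of the groups given a role, with 26 members. Their medians were 3.71 for FLAG-CBFB and 4.36 for hnRNPK. POLR2A, the largest subunit of RNA polymerase II, measured 19.5 FPKM in the FLAG-CBFB cell input, 109.9 in the FLAG-CBFB RIP, 25.1 in the parental cell input, and 210.1 and 202 in the hnRNPK RIP repeats. It had the highest mean hnRNPK enrichment of all members, 5.63 ± 0.01, with the repeats almost equal, against 3.77 in the FLAG-CBFB RIP. CCNK, the cyclin of kinases that phosphorylate the POLR2A tail, stood at 4.31 and 5.38 ± 0.11. TCF7L1, a DNA-binding effector of Wnt signalling, measured 3.17 FPKM in the FLAG-CBFB cell input, 39.9 in the FLAG-CBFB RIP, 3.15 in the parental cell input, and 23.2 and 17.5 in the hnRNPK RIP repeats, with enrichments of 4.63 and 4.99 ± 0.23. NR1D1 and PER1, both repressors in the circadian clock, differed in level and in enrichment, with 4.53 and 4.65 ± 0.27 for NR1D1 and 3.08 and 3.57 ± 0.09 for PER1. EGR1, an immediate early transcription factor, measured 141 FPKM in the FLAG-CBFB cell input, 725 in the FLAG-CBFB RIP, 58.1 in the parental cell input, and 537 and 181 in the hnRNPK RIP repeats. Its hnRNPK repeats differed by far more than those of most members, at 5.80 and 4.30. SP2, of the SP family that binds GC boxes, was at 3.67 and 4.87 ± 0.05. MYPOP, a Myb-related repressor, was nearly level over the 3 RIPs, at 4.55, 4.42 and 4.40. The coactivators CRTC1 and CRTC2 of CREB, the corepressors ATN1 and RERE, and the SOX factors SOX12 and SOX15 were also members.

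Actin regulators and adhesion proteins were encoded by 11 members, with medians of 3.96 and 4.57. CFL1, the actin-severing protein cofilin, had the highest FPKM of all members in the FLAG-CBFB RIP. It measured 484 FPKM in the FLAG-CBFB cell input, 5309 in the FLAG-CBFB RIP, 767 in the parental cell input, and 1365 and 1836 in the hnRNPK RIP repeats. The ratio to input was 11.0-fold in the FLAG-CBFB RIP but 1.78- and 2.39-fold in the hnRNPK repeats. SSH2, a phosphatase that activates cofilin, was the 1 member whose counts did not follow its FPKM. ZYX, a focal adhesion protein, measured 107 FPKM in the FLAG-CBFB cell input, 1151 in the FLAG-CBFB RIP, 114 in the parental cell input, and 515 and 369 in the hnRNPK RIP repeats, and stood at 4.76 and 4.57 ± 0.29. SORBS3 (vinexin), another focal adhesion adaptor, was nearly level over the 3 RIPs, at 4.84, 4.85 and 4.80. MYL9 (myosin light chain) and BCAM (a laminin receptor) were at 3.96 and 3.79 ± 0.39, and at 3.48 and 4.92 ± 0.04. RAPH1 (lamellipodin), which acts at lamellipodial edges, was at 3.04 in the FLAG-CBFB RIP, just past the threshold, and at 5.01 ± 0.21 in the hnRNPK RIP.

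Membrane traffic and the endoplasmic reticulum accounted for 12 members, with medians of 3.56 and 4.56. RAB3A, a GTPase of regulated exocytosis, measured 3.94 FPKM in the FLAG-CBFB cell input, 56.1 in the FLAG-CBFB RIP, 3.23 in the parental cell input, and 25.7 and 30.7 in the hnRNPK RIP repeats. All 3 RIPs were well above the inputs, and the enrichments were 4.87 and 5.43 ± 0.22. VAMP2 (a SNARE of vesicles) and NAPA (alpha-SNAP, which takes SNARE complexes apart) differed in opposite directions between the RIPs on the centred scale. VAMP2 stood at 3.32 for FLAG-CBFB and 5.35 ± 0.63 for hnRNPK, and NAPA at 3.90 and 3.26 ± 0.12. KDELR1, the receptor that returns proteins to the endoplasmic reticulum, was at 3.25 and 4.40 ± 0.34, and SYVN1, a ubiquitin ligase that marks misfolded proteins of that compartment, at 3.31 and 4.15 ± 0.54. DNM1 (dynamin) was the least abundant member in the FLAG-CBFB cell input, with inputs at 0.32 and 0.9 FPKM, and reached 4.19 FPKM for FLAG-CBFB and 2.74 and 2.30 in the hnRNPK repeats.

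Epithelial surface and cornification genes gave 6 members, with medians of 3.78 and 4.54. SPRR1B, a precursor of the cornified envelope, measured 29.8 FPKM in the FLAG-CBFB cell input, 364 in the FLAG-CBFB RIP, 9.05 in the parental cell input, and 61.3 and 25.9 in the hnRNPK RIP repeats. Both its inputs and its hnRNPK repeats differed, with repeat 1 at 5.24 and repeat 2 at 4.10. CASP14, the caspase of epidermal differentiation, measured 10.6 FPKM in the FLAG-CBFB cell input, 45.2 in the FLAG-CBFB RIP, 0.63 in the parental cell input, and 4.75 and 5.87 in the hnRNPK RIP repeats. Its input level was 2.83 higher on the log2(FPKM + 1) scale in the FLAG-CBFB cells, the largest input difference among the members. ALOXE3, an epidermal lipoxygenase, had the widest spread between the hnRNPK repeats, at 4.82 and 3.04. MUC1, a cell surface mucin, stood at 4.37 and 4.83 ± 0.24, IL1RN, the interleukin-1 receptor antagonist, at 3.20 and 4.11 ± 0.44, and PROM2, a cholesterol-binding membrane protein, at 3.15 and 4.50 ± 0.19.

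Kinases, phosphatases and other signalling proteins gave 8 members with medians of 3.51 and 4.17. Metabolic enzymes and transporters gave 9 with medians of 3.59 and 4.17. PRKACA, the catalytic subunit of protein kinase A, measured 30.2 FPKM in the FLAG-CBFB cell input, 123 in the FLAG-CBFB RIP, 28.5 in the parental cell input, and 205 and 182 in the hnRNPK RIP repeats. It had the largest excess of hnRNPK over FLAG-CBFB enrichment of all members, with 3.32 against 5.37 ± 0.07. The inhibitors CAMK2N1 and CAMK2N2 of the calcium/calmodulin kinase II were both members, at 3.42 and 4.71 ± 0.22, and at 4.14 and 3.83 ± 0.19. CTDNEP1, a phosphatase of the nuclear envelope, had almost equal repeats, 4.59 and 4.59. G6PC3, a glucose-6-phosphatase, measured 35.9 FPKM in the FLAG-CBFB cell input, 652 in the FLAG-CBFB RIP, 74.2 in the parental cell input, and 295 and 268 in the hnRNPK RIP repeats, with the FLAG-CBFB enrichment (5.48) above both hnRNPK repeats (4.58 and 4.52). POM121 and POM121C, near-identical genes of a nuclear pore protein, were at 3.40 and 4.26 ± 0.09 and at 3.41 and 4.59 ± 0.26. Reads of this pair could be split between them by the counting, so their separate values are uncertain.

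Long noncoding RNAs and transcribed pseudogenes gave 9 members with medians of 4.68 for FLAG-CBFB and 4.54 for hnRNPK. TPTEP1, a transcribed pseudogene, measured 9.92 FPKM in the FLAG-CBFB cell input, 118 in the FLAG-CBFB RIP, 21.4 in the parental cell input, and 119 and 132 in the hnRNPK RIP repeats. VPS9D1-AS1, an antisense RNA, measured 7.63 FPKM in the FLAG-CBFB cell input, 109 in the FLAG-CBFB RIP, 16.7 in the parental cell input, and 73.5 and 84.5 in the hnRNPK RIP repeats. In both, the RIPs were several-fold above the inputs and the enrichment exceeded 4 in every RIP. LINC00707 stood at 3.84 and 4.99 ± 0.00, and LNCOG at 5.39 and 4.36 ± 0.66, the latter with the FLAG-CBFB value above both repeats. AC133550.1 lies antisense within ATXN2L, and both are members. Whether the counting used strand was not stated, so reads of this pair cannot be told apart. PCBP2P2 is a processed pseudogene of PCBP2, at 3.76 and 3.55 FPKM in the inputs against 564 and 452 for PCBP2, and its value may rest on reads of PCBP2. By annotation, 114 of the 126 members (90.5%) were protein coding, against 90.1% of all analysed genes. Another 3 members were identifiers without a name in the tables used here, of which ENSG00000056661 was the highest at 5.04 and 4.60 ± 0.12. Counting these identifiers, 35 members were not assigned to a role and had medians of 3.87 and 4.35.

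The RIPs were compared by the level of enrichment of each member on the centred scale. For 76 members the FLAG-CBFB enrichment lay below both hnRNPK repeats, for 30 it lay above both, and for 20 it fell between them. These counts turn with the scaling. With no centring, 8 lay below both repeats and 101 above both, with libraries brought to one arithmetic mean FPKM 10 and 97, and with centring over all genes without a filter 18 and 90. Under the 8 other scalings, filters and inputs tried, 71 to 103 lay below both and 12 to 34 above. These recounts were added after seeing the data. The direction between the RIPs thus depends on the scaling, and the FLAG-CBFB RIP was 1 library. HHLA3 had the largest excess in the FLAG-CBFB RIP, 1.58, followed by SOX15 at 1.46 and MMP24OS at 1.40. HHLA3 measured 6.53 FPKM in the FLAG-CBFB cell input, 238 in the FLAG-CBFB RIP, 10.8 in the parental cell input, and 64.3 and 38.1 in the hnRNPK RIP repeats. Its FPKM ratio to input in the FLAG-CBFB RIP, 36.5-fold, was the highest of all members. SOX15, an SRY-related transcription factor, measured 29.2 FPKM in the FLAG-CBFB cell input, 284 in the FLAG-CBFB RIP, 52.2 in the parental cell input, and 74.1 and 71.7 in the hnRNPK RIP repeats. The FLAG-CBFB RIP was 9.74-fold above its input on the FPKM scale, and the hnRNPK repeats were 1.42- and 1.37-fold above theirs. When libraries were instead brought to one arithmetic mean FPKM, without centring, its hnRNPK value was -0.37, and no other member named by the rule changed sign. At the other end were PRKACA at -2.04, VAMP2 at -2.03 and RAPH1 at -1.97. On the centred scale, 31 members were more than 1 lower in the FLAG-CBFB RIP than in the hnRNPK mean and 5 were more than 1 higher, whereas with no centring these counts were 0 and 57.

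Between the hnRNPK repeats, 90 of 126 members were higher in repeat 1, and the SD exceeded 0.5 in 16. The shares over all analysed genes were not computed, so whether these counts are unusual cannot be said. The difference between the repeats had an SD of 0.43 across the members and 0.35 across all analysed genes. Most analysed genes had a low FPKM in these repeats, where the pseudocount narrows the spread. The widest were ALOXE3, with an SD of 1.26, EGR1, with 1.06, and SPRR1B, with 0.81. EGR1 held 164306 expected counts in repeat 1 and 48660 in repeat 2, far more than counting error alone would separate. ALOXE3 would not have passed with repeat 2 only slightly lower, since it stood there at 3.04. Counting error was small for nearly all members, whose lowest input held 101 expected counts and whose median was 3232 in the FLAG-CBFB cell input and 2096 in the parental input. Without molecular identifiers, PCR copies were counted too, and counting error understates the error of a library.

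The members shared features that the rule did not use, given here with no test because genes are not replicates. Of the 126, 123 had an annotated transcript, taken as the one with the best APPRIS rank. For POLR2A and POM121C this transcript was under 50% of the deposited gene length, so their features cover a part only. For 9 others it was over 2 times that length, namely DROSHA, EP400P1, MAPK1IP1L, MYL9, PPP1R13L, PPP1R18, RBPMS, SSH2 and TMEM8B. Over the 112 members without these 11, the median of C runs was 11.9 per kb. Runs of 4 or more C occurred at a median of 11.7 per kb of transcript in the members, 7.53 in the set most like them and 3.49 in all analysed genes. Of the members, 103 (83.7%) lay above the upper quartile of all genes, and of the set most like them 93 (63.3%) did. Runs of 4 or more G, read on the same strand, were less different, at 5.39, 4.05 and 3.30 per kb. The median GC content was 59.6% in the members, 53.8% in the like set and 49.2% in all genes. The C runs were dense in each part of the mRNA, with the like set between the members and all genes. The medians in that order (members, like set, all genes) were 11.5, 8.57 and 5.43 per kb in 5′ untranslated regions. They were 11.3, 6.46 and 3.22 in coding parts and 12.6, 7.68 and 2.38 in 3′ untranslated regions. PPDPF had the most C runs at 26.5 per kb, then MMP24OS at 23.1 and CAMK2N2 at 22.0. Among the 123 members, C runs per kb hardly followed enrichment, with Spearman correlations of 0.12 for FLAG-CBFB and -0.05 for hnRNPK. For GC content these were 0.14 and -0.23. Across all 11533 genes with a transcript, C runs gave 0.21 and 0.23.

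**Figure D4:**
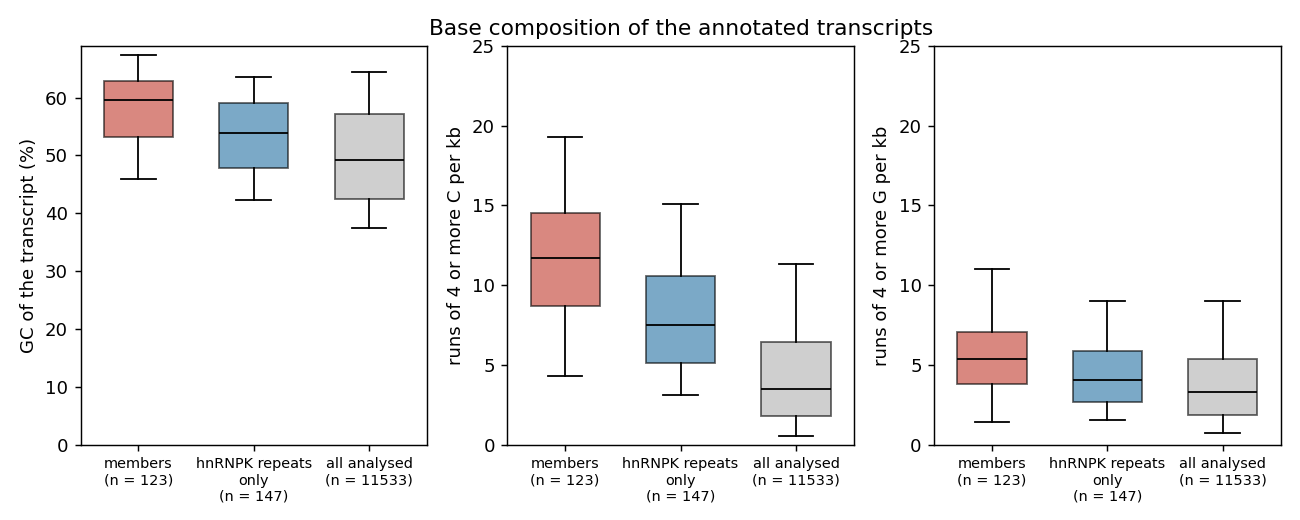
Transcript GC content (left, %), runs of 4 or more C per kb (middle) and runs of 4 or more G per kb (right) for the members (red), for the genes above 3 in both hnRNPK repeats only (blue) and for all analysed genes (grey). Lines are medians, boxes the quartiles and whiskers the 5th and 95th percentiles over transcripts. The medians for C runs were 11.7, 7.53 and 3.49 per kb, a wider difference than for G runs at 5.39, 4.05 and 3.30.

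GC-rich genes were more often members, from 0 of 1635 genes with at most 40% GC to 17 of 444 genes (3.83%) above 65%. Within each range of GC above 40%, the members had more C runs than the other genes. Between 60 and 65% GC, the 41 members had a median of 13.3 C runs per kb and the other 1333 genes 8.43, while G runs were at 6.91 and 6.67. Between 50 and 55% GC, the 21 members had 8.41 and the other 1831 genes 4.55. The like set was closer, at 11.8 between 60 and 65% GC and 7.39 between 50 and 55%, and between 45 and 50% it lay above the members, at 4.97 against 4.40. Windows of at most 30 nt with 3 runs of 3 or more C, on the transcript strand, were present in 95.9% of the members' transcripts, in 96.6% of the like set and in 74.7% of all, so the presence of one is common. Their density differed more, at 8.42, 4.31 and 0.97 per kb. The most C-rich 30 nt, of the kind printed for 8 members, held a median of 17 bases in runs of 3 or more C in the members, 16 in the like set and 12 in all. It lay in the 3′ untranslated region for 42 members (34.1%), against 40.8% of the like set and 26.1% of all. The coding part held it for 44 (35.8%), against 28.6% and 34.9%. The 5′ untranslated region held it for 27 (22.0%), against 23.1% and 28.5%. A C run in these letters is a description of the transcript and not a binding site.

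The members' transcripts were somewhat shorter than average, with a median of 2553 nt against 2908 nt for all genes and 4097 nt for the like set. Their 3′ untranslated regions had a median of 843 nt, against 1066 nt and 1810 nt. Among the 123 members, transcript length and enrichment were related in the FLAG-CBFB RIP, with a Spearman correlation of -0.49, and not clearly so in the hnRNPK RIP, with 0.06. Over the 112 members whose annotated transcript was within 2-fold of the deposited length, these values were -0.57 and 0.11, and across all 11533 genes with a transcript they were -0.34 and 0.21. The correlations are across genes, which share libraries and length normalization, and are given without a test. The short transcripts HHLA3, PPDPF and MMP24OS were all among the highest in the FLAG-CBFB RIP.

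**Figure D5:**
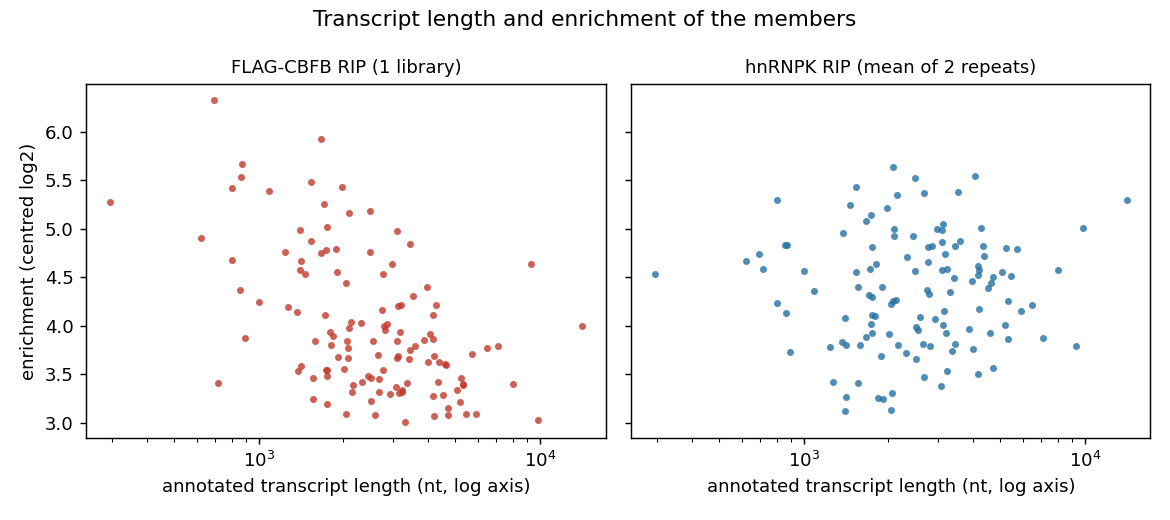
Annotated transcript length (x axis, nt, log scale) against enrichment (y axis, centred log2) for the 123 members with a transcript, in the FLAG-CBFB RIP (left, red, 1 library) and the hnRNPK RIP (right, blue, mean of 2 repeats). Points start at 3 because the rule requires it. Values in the left panel tend to be lower for longer transcripts (Spearman correlation -0.49), and the right panel shows no such slope (0.06).

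FPKM depends on the transcript length that RSEM estimated in each library, and for 3 members this estimate moved by more than 1.5-fold between a RIP and its input. For SSH2 the estimated length in the FLAG-CBFB RIP was 0.134 of that in the input, and 0.228 and 0.234 in the hnRNPK repeats. SSH2 went from 6.18 to 69.8 FPKM in the FLAG-CBFB RIP, while its expected counts went from 3222 to 3238. From counts alone its centred enrichment was 1.82 for FLAG-CBFB and 2.39 and 2.40 in the hnRNPK repeats, so its place among the members rests on the length estimate. TPTEP1 and IQSEC2 were the others. The remaining 125 members passed 3 in all 3 RIPs from counts as well.

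Of the 123 members with a position, 23 (18.7%) lay on chromosome 19, against 6.61% of analysed genes, 14 (11.4%) on chromosome 17 against 6.15%, and 9 (7.32%) on chromosome 20 against 2.62%. None lay on chromosomes 13, 18 or 21, which hold 1.68%, 1.40% and 0.98% of analysed genes. Several members were neighbours, and those named here had some of the shortest gaps. How often as many analysed genes lie this close was not computed. PRR14 and FBRS were 1990 nt apart on chromosome 16, and PER1 and VAMP2 were 2642 nt apart on chromosome 17, with ALOXE3 21424 nt from PER1. POLR2A, TNFSF12 and SOX15 lay in a row on chromosome 17, with gaps of 34274 and 30287 nt. Among these 123 members, 45 overlapped another analysed gene, 43 of them on the opposite strand and 6 on the same strand, some on both. The share over all analysed genes was not computed, so whether this count is unusual cannot be said. Reads of an overlapped stretch may belong to either gene. None overlapped a gene left out by name.

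The inputs were alike for most members, with a median log2(FPKM + 1) difference of -0.18 between the FLAG-CBFB cells and the parental cells. More than 1 higher in the FLAG-CBFB cells were 5 members (3.97%, against 4.35% of analysed genes), namely CASP14, SPRR1B, BCAM, EGR1 and PROM2. More than 1 lower were 10 members (7.94%, against 5.34%), among them LINC00707, PPDPF, TPTEP1 and G6PC3. Each input was 1 library, so these differences carry no replicate error, and the shares are near those of all genes.

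Gene lists written for the pathways of this cell type were made with earlier results of these data known. Of all analysed genes, 1.07% were members. Of 27 measured immediate early and feedback genes, 3 were members (EGR1, ZFP36 and ZFP36L1), and the list's median enrichment was 0.01 for FLAG-CBFB and 0.18 for hnRNPK, against -0.19 and -0.11 for all analysed genes. POLR2A was the only member of 12 RNA polymerase II subunits, whose medians were -0.08 and -1.43. SF3B4 was the only member of 10 SF3A and SF3B subunits, SF3A2 having been left out by name, and the medians were -0.24 and -1.50. SP2 was the only member of 13 KLF and SP factors, with medians of -0.45 and 0.71. The 12 AP-1 genes (medians -0.22 and 0.44) and the 11 GSK3 and AKT pathway genes (-0.55 and -0.03) gave no members beside FOSL1 and GSK3A, which were left out by name. The 11 H3K4 methyltransferases and coactivators gave none but had medians of 1.23 and 2.27, and 3 of them passed 3 in both hnRNPK repeats. The 12 chromatin remodelling genes (-0.51 and -0.35), the 13 EGF receptor signalling genes (-0.63 and 0.16), the 79 cytosolic ribosomal protein genes (-0.49 and -2.61) and the 76 mitochondrial ribosomal protein genes (-0.14 and -1.94) gave none.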

How the data were processed

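The data were 5 RIPseq libraries of MCF10A cells, grouped by their titles. Per the labels, Trizol and columns were used to isolate the RNA, and a TruSeq mRNA kit to prepare the libraries. The submitters' processing notes name Trimmomatic, STAR, RSEM and the build hg19, with no versions. The expected counts, deposited unrounded, are what RSEM assigned to each gene. FPKM, also deposited, scales them to effective transcript length and library size, and the deposited TPM was not used here. The deposited lengths are abundance-weighted means per gene.

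Each table held 56632 Ensembl identifiers, of which 51497 matched a name in the gene name table or in GENCODE 29. Positions and transcript sequences are those of GENCODE 29 (GRCh38), looked up by identifier, since hg19 coordinates were not used. In the study, FPKM + 1 is plotted on a log2 scale and called mean adjusted. The log2(FPKM + 1) difference centred on its mean is 1 reading of that, and it understates the change of weakly expressed genes. The members and the gene lists were chosen with earlier results of these data known. With 1 library in 3 of the 4 groups, and with members chosen on these contrasts, no test was run and precision is given as the SD over the 2 hnRNPK repeats. Depth was 69786576 to 106855647 expected counts per library. The enrichment and the rule were run on simulated counts with known fold changes. These did not copy the mitochondrial excess of the RIP libraries, so they check the calculation and not the scaling between the real libraries.

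Genes were named by rule: the 20 members with the highest lowest-of-3 enrichment, members in a list, the 3 just inside and 3 just outside the threshold, the 3 with the largest and 3 with the smallest difference between the RIPs, and the 3 with the most C runs. Other members, named to show what the groups encode, and PCBP1, PCBP4, HNRNPK, GAPDH and RUNX1, given for comparison, were chosen after values were seen. Alternatives covered the pseudocount, the filter, the centring, the scaling (among them TMM factors of edgeR 4.0.16 and size factors of DESeq2 1.42.0 on rounded counts), the input, the repeats, the threshold and the count minimum. Calculations ran in Python 3.11.15 (pandas 2.3.3) and R 4.3.3.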

Additional observations from a re-analysis of the deposited data

How the results depend on the processing

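The rule found 126 members, with medians of 3.84 for FLAG-CBFB and 4.38 for hnRNPK (the mean of 2 repeats). With no centring 0 genes passed and the medians were 2.50 and 1.74. With every library brought to one arithmetic mean FPKM, 0 passed and the medians were 1.64 and 0.93. Rescaling FPKM without mitochondrial genes, also uncentred, gave 119, all of them members. Over all genes without a filter 4 passed (medians 2.82 and 2.34), and the cause was not tested. A pseudocount of 0.1 gave 193 (4.20 and 5.27), TMM factors 222 (4.40 and 5.34), DESeq2 size factors 242 (4.48 and 5.60) and, chosen after seeing the data, centred log2 expected counts relative to library total 204 (4.28 and 5.43). The last 3 each kept 125 of the 126 members and left out SSH2. The filter of a mean FPKM of at least 5 (medians 3.92 and 4.84), centring on the median (4.03 in the FLAG-CBFB RIP) and the opposite input (3.71) moved a median but left the number within 1.5-fold. The opposite input kept 108 of the members. A threshold of 2 gave 319 genes and of 4 gave 33, and 78 of the 123 members with a position overlapped no other analysed gene, a count added after seeing the data. Leaving out either hnRNPK repeat gave 130 to 135 genes, a FLAG-CBFB median of 3.84 and hnRNPK medians of 4.22 to 4.52. Among the genes named by the rule, the hnRNPK value changed sign in SOX15 (-0.37) and in AC124944.3 (-0.10), both with libraries brought to one arithmetic mean FPKM. With the longest annotated transcript, the members' median was 11.5 C runs per kb, against 3.42 for all genes. No paired analysis was possible because each input was 1 library, so fewer than 2 numbers are shared, and no test was run. With 1 FLAG-CBFB RIP and 1 input of each kind, the spread between separate FLAG-CBFB RIPs is unknown.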
